A study of Mus musculus with 46 samples.

Results

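The ADAM genes are a family of membrane proteins with a disintegrin and a metalloprotease domain, and 10 of them, of 53465 genes in the deposited table, were followed here: Adam8, Adam9, Adam10, Adam12, Adam15, Adam17, Adam19, Adam22, Adam23 and Adam33. They were chosen by name, as Adam10 and its membrane relatives, and not by their values. RNA had been sequenced from 4 populations sorted from wild-type (WT) mouse kidneys, namely LTL+ proximal tubule (PT) cells, F4/80+ macrophages, CD31+ endothelial cells and PDGFRB+ stromal cells. The mice, C57BL/6 males aged 8 to 12 weeks, had undergone sham surgery, unilateral ureteric obstruction (UUO) or reversal of the obstruction by reimplanting the ureter (rUUO), with rUUO kidneys taken 14 days after reversal. The series describes UUO at 2 and at 7 days, and the sample labels do not say which of these a UUO sample comes from. It also describes 4 mice per group, but the labels do not tie samples to mice, so a p-value measures only the spread between these samples. The CD31, F4/80, LTL and PDGFRB gates define the populations, and a sorted sample can still hold other cells. The sham, UUO and rUUO groups held 3, 4 and 3 samples for PT cells, 4, 4 and 3 for macrophages, 4, 3 and 4 for endothelial cells and 4, 4 and 4 for stromal cells, 44 samples in all. Levels are in FPKM, read fragments scaled by transcript length and library size, on which genes can be set side by side.

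As background, ADAM proteases sit in the membrane and cut the outer part off neighbouring membrane proteins, a step called ectodomain shedding. Adam10 and Adam17 are the principal sheddases of most cells: Adam10 makes the activating cut in Notch receptors and cleaves cadherins, and Adam17 releases tumour necrosis factor and several ligands of the epidermal growth factor (EGF) receptor. Adam8, Adam9, Adam12, Adam15, Adam19 and Adam33 are also active metalloproteases. Adam22 and Adam23 lack the zinc-binding catalytic site and act as adhesion receptors, so the name sheddase does not hold for them. The pathway also needs proprotein convertases that remove the inhibitory prodomain, tetraspanins and iRhoms that escort Adam10 and Adam17 to the surface, and TIMP and Reck proteins that inhibit the protease. In the kidney, shed forms of membrane proteins such as Kim-1 (Havcr1) and Klotho are well known.

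The study concerns miR-190a-5p, so its sequence is shown with the stretches of ADAM transcripts that could pair with it. The mature miRNA (RefSeq, GRCm38, chr9:67236700-67236721, minus strand) is printed with its seed, bases 2 to 8, in capitals, and the longest 3′ untranslated region (UTR) of each member in GENCODE M21 was searched on the transcript strand for ACATATC, which pairs with the seed, and for CATATCA, which pairs with bases 2 to 7 and has an A opposite base 1. The 7 letters of the second motif are in capitals in the sites below, each 30 bases long and read 5′ to 3′ on the strand of the gene.
mmu-miR-190a-5p: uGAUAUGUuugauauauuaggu
Adam12 (chr7:133884249-133884278, minus strand): ctatcccacagCATATCAaccacagtgacc
Adam19 (chr11:46145688-46145717, plus strand): gtcccttgaacCATATCAgaaaaagaccca
Adam22 (chr5:8077606-8077635, minus strand): cagtaccagggCATATCAattaatcttaac
ACATATC was in none of the 10 regions, and CATATCA was in 3 of them, once each in Adam12, Adam19 and Adam22. Among all 21006 genes with an annotated 3′ UTR, 6.34% held the first motif, 7.07% the second and 10.6% at least 1 of them. The median 3′ UTR was 960 bases long, against 4743 in Adam12, 3498 in Adam19 and 6334 in Adam22, and a longer region holds any motif more often. The 2135 bases of Adam10 held neither motif. The study, by contrast, reports a TargetScan site for miR-190a-5p in the 3′ UTR of ADAM10. It also reports lower ADAM10 with a mimic and higher ADAM10 with an inhibitor in human proximal tubule cells. Whether that effect is direct it could not define. The search here covered only 1 mouse region of the gene. These are matches of letters in 1 annotated region per gene and not binding sites.

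Promoter windows of 300 bases across the transcript start were listed by RefSeq (GRCm38.p6) for 7 members, of which Adam19 had 3. They are described by their CpG dinucleotides, printed in capitals for Adam10, which was detected in all 4 populations, and for Adam8, whose level was mainly in macrophages.
Adam10 promoter (chr9:70678732-70679031, plus strand): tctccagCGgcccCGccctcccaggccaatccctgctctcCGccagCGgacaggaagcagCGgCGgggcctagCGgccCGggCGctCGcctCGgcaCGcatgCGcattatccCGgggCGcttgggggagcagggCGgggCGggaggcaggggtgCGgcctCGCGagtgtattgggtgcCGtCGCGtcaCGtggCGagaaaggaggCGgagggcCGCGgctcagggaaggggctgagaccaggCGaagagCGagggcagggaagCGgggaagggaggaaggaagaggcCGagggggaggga
Adam8 promoter (chr7:139992513-139992812, minus strand): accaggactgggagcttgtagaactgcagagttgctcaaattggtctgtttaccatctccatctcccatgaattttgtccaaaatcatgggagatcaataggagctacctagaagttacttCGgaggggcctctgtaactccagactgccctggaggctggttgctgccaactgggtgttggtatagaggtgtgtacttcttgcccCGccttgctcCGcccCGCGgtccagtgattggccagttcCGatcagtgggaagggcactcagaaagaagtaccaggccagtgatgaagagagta
The Adam10 window held 32 CpG and the Adam8 window 6. The windows of Adam15, Adam17, Adam22 and Adam23 held 25, 30, 19 and 31, and those of Adam19 held between 5 and 11. The median over 32851 promoter windows was 7, and 26.5% of them held 20 or more. Windows with 19 or more CpG occurred both in broadly detected members (Adam10, Adam15, Adam17) and in members with a narrow range of populations (Adam22, Adam23).

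Each population had a higher sum of its own markers than any sample of the others. Proximal tubule markers (6 genes) summed to 473 to 2413 FPKM in PT cells, lowest after UUO, and to up to 129.6 FPKM in a sham endothelial sample. Sham endothelial and stromal samples also held thick ascending limb and distal tubule markers, at 148 to 758 and 313 to 479 FPKM. Macrophage markers (6 genes, among them Adgre1 and Csf1r) summed to 4737 to 9874 FPKM in macrophages and to at most 53.4 FPKM in any other sample. Genes of the mitochondrial genome took 58.7 to 75.6% of the summed FPKM in PT cells and 20.2 to 45.8% elsewhere, and the FPKM of all other genes is relative to a total that includes them. Relative depth, read from the steps between low values, ran from 0.59 to 1.56 between samples, and read totals were not given. In sorted bulk samples, a smaller share of expressing cells and less RNA per cell cannot be told apart.

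In sham kidneys the members differed widely between populations. Adam15 was the most abundant member in endothelial cells and in macrophages, Adam9 and Adam15 led in stromal cells, and Adam9 was the highest of the low values in PT cells. The 10 genes together summed to 21.0 ± 1.24 FPKM in PT cells (SD, n = 3), 202.9 ± 6.13 in macrophages, 226.6 ± 55.9 in endothelial cells and 119.3 ± 18.2 in stromal cells (n = 4 each). The low PT sum depends on scaling. Rescaled without mitochondrial genes, Adam15 in PT cells was below macrophages by -2.40 on the log2 scale, against -3.48 as deposited. Of the members, 9 passed the filter of a mean of 1 FPKM over the sham samples, all but Adam8, and 40 of their 54 differences between pairs of populations passed the test (limma on log2(FPKM + 1), Benjamini-Hochberg adjusted p under 0.05). By pair, the members called against the share of all genes called were 7 of 9 against 64.9% for PT cells and macrophages, 5 of 9 against 62.3% for PT and endothelial cells, and 9 of 9 against 67.6% for PT and stromal cells. They were 7 of 9 against 45.7% for macrophages and endothelial cells, 6 of 9 against 48.1% for macrophages and stromal cells, and 6 of 9 against 24.2% for endothelial and stromal cells. After quantile normalization Adam10, Adam23 and Adam33 did not pass between PT and stromal cells (adjusted p of 0.986, 0.541 and 0.138).

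**Figure D1:**
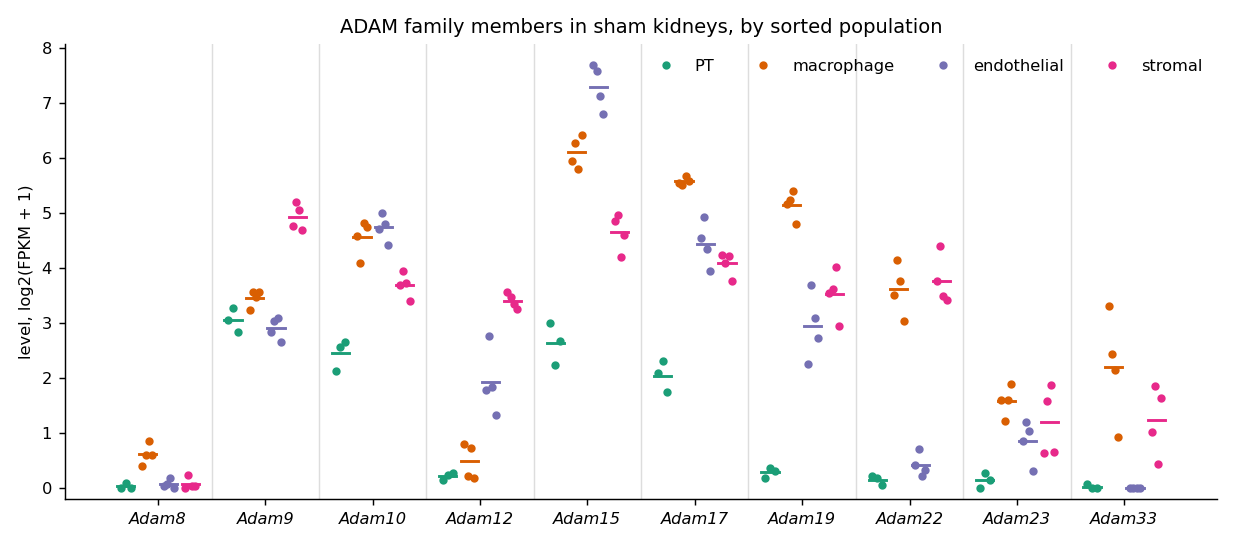
Level of each member in sham kidneys, as log2(FPKM + 1) on the vertical axis, with 1 point per sample and a bar at the group mean, coloured by population. Adam15 in endothelial cells has the highest points of the plot, the PT points of Adam12, Adam19, Adam22, Adam23 and Adam33 lie near 0, and Adam8 is near 0 in every population but macrophages.

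The principal sheddases had different orders. Adam10 (chr9:70678997-70780229, plus strand) was at 25.2, 31.1, 26.9 and 20.5 FPKM in the 4 endothelial sham samples, at 22.8, 16.0, 27.2 and 25.8 in macrophages, at 11.9, 14.4, 12.3 and 9.56 in stromal cells, and at 3.37, 4.94 and 5.32 in PT cells. All PT samples were below all others. Endothelial cells and macrophages, neighbours in this order, were not separated beyond their spread (difference of -0.18 ± 0.22 on the log2 scale, SE, adjusted p = 0.522), whereas macrophages were above stromal cells (0.86 ± 0.22, adjusted p = 0.00296) and stromal above PT cells (1.24 ± 0.23 in size, adjusted p = 0.000183). Adam17 was highest in macrophages (46.8 ± 2.18 FPKM), then in endothelial (21.4 ± 6.24) and stromal cells (16.1 ± 2.41), whose difference did not pass (0.36 ± 0.21, adjusted p = 0.254), and lowest in PT cells (3.18 ± 0.81). Dividing instead by the summed FPKM outside the mitochondrial genome raised the PT mean of Adam10 to 18.95 ± 5.97 on the rescaled FPKM scale, and left it below the endothelial mean of 60.4 ± 10.9 and the stromal mean of 29.8 ± 3.97. The gap between macrophages and stromal cells did not pass on that scale (0.43, adjusted p = 0.114), and after quantile normalization the gap between PT and stromal cells did not (-0.01, adjusted p = 0.986).

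Among the other active proteases, Adam15 separated all 4 populations, with 161.2 ± 44.3 FPKM in endothelial cells, 69.2 ± 14.01 in macrophages, 24.7 ± 5.67 in stromal cells and 5.35 ± 1.64 in PT cells. Every difference between them passed the test. Adam15 made up 70.8 ± 4.21% of the summed endothelial level of the 10 genes. Adam9, also called meltrin gamma, was highest in stromal cells (29.8 ± 5.02 FPKM) and lay between 6.54 and 10.1 FPKM on average in the others. The difference in Adam9 between PT cells and macrophages did not pass as deposited (-0.41 ± 0.21, adjusted p = 0.0949), and with mitochondrial genes left out the sign turned and PT cells were higher (0.65, adjusted p = 0.0111), as they were after quantile normalization (0.63, adjusted p = 0.006). PT cells were also higher than endothelial cells in both scalings (0.88, adjusted p = 0.00139, and 1.24, adjusted p = 1.67e-05, against 0.14 and 0.572 as deposited), and the higher Adam9 of macrophages over endothelial cells (0.56, adjusted p = 0.0266) did not pass without mitochondrial genes (0.23, adjusted p = 0.328). Adam19, or meltrin beta, was led by macrophages (34.8 ± 5.98 FPKM), over stromal (10.9 ± 3.48) and endothelial cells (7.20 ± 3.49), which were not separated (-0.59 ± 0.29, adjusted p = 0.168), and PT cells had 0.14 to 0.29 FPKM. Adam12, or meltrin alpha, was led by stromal cells (9.65 ± 1.02 FPKM), with 3.08 ± 1.86 in endothelial cells and under 1 FPKM in every macrophage and PT sample. Adam8, a protease of leukocytes, reached 0.31 to 0.80 FPKM in sham macrophages and at most 0.18 FPKM in the other sham samples, and was too low there to be tested.

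The noncatalytic members and Adam33 had means over 1 FPKM in macrophages and stromal cells and under 1 FPKM in PT and endothelial cells. Adam22 had 13.1 ± 4.81 FPKM in stromal cells and 11.7 ± 4.03 in macrophages, a difference that did not pass (-0.15 ± 0.28, adjusted p = 0.689), and at most 0.63 FPKM in endothelial and PT sham samples. Adam23 stayed low everywhere in sham kidneys, with a highest value of 2.71 FPKM in a macrophage sample. Adam33 spread from 0.89 to 8.87 FPKM among the 4 sham macrophage samples and from 0.36 to 2.63 FPKM among the stromal ones, and it was listed at 0 in all 4 endothelial samples.

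In stromal cells the summed level was 306.2 ± 45.2 FPKM after UUO and 165.1 ± 34.7 after rUUO, against 119.3 ± 18.2 in sham kidneys, and the ranges of UUO (252.6 to 360.0) and sham (98.0 to 142.5) did not overlap. Adam12 supplied 31.4 ± 6.00% of the sum after UUO. After rUUO the range (127.8 to 211.3) overlapped that of sham. Elsewhere the sum was 202.9, 205.4 and 217.8 FPKM on average in macrophages after sham, UUO and rUUO, 226.6, 213.5 and 283.2 in endothelial cells, and 21.0, 33.0 and 25.4 in PT cells.

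**Figure D2:**
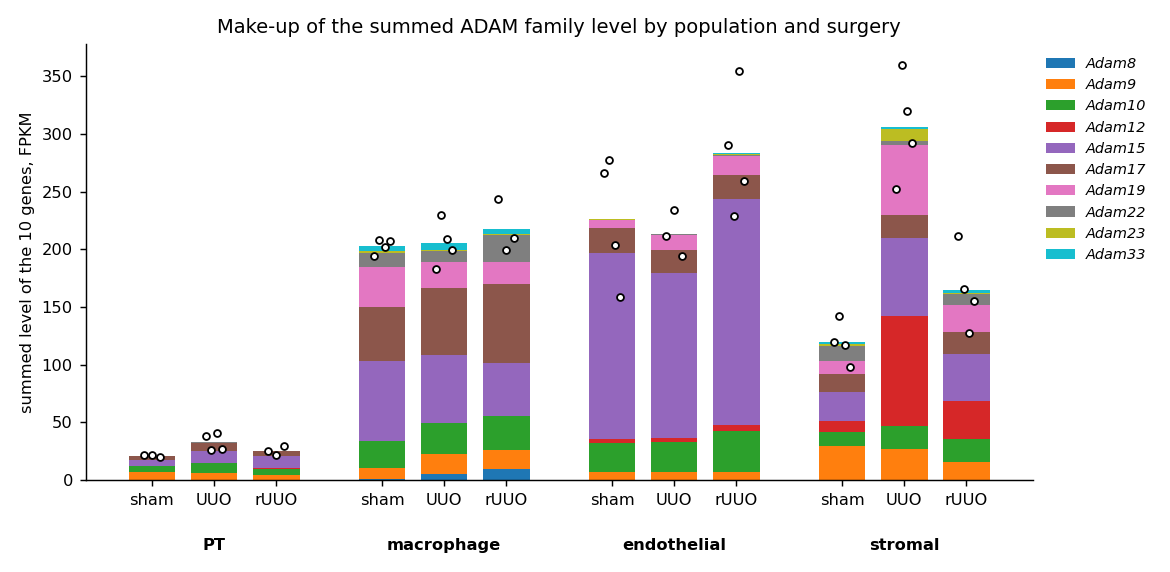
Summed level of the 10 genes in FPKM (vertical axis, from 0) for each population and surgery. Stacked bars show the mean level of each member and open circles the sum in each sample, and the stromal UUO bar is the tallest, with Adam12, Adam15 and Adam19 as its largest parts.

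Within stromal cells, 9 members passed the filter of a mean of 1 FPKM (all but Adam8) and 5 of them changed with UUO. Adam12, Adam19, Adam23 and Adam10 were higher and Adam22 was lower than in sham kidneys, so 4 of 9 members were called higher against 13.4% of all 14033 genes tested, and 1 of 9 lower against 13%. The median change over the 9 tested members was 0.66 on the log2 scale, against -0.07 over all genes. After rUUO, compared with UUO, none of the 9 was called higher (2.95% of all genes) and 3 were called lower (1.22%), namely Adam12, Adam19 and Adam9. Compared with sham, rUUO samples had 3 members higher (11.6% of all genes), namely Adam12, Adam19 and Adam10, and 1 lower (5.57%), Adam9. The share of calls that were higher, over all genes, was 50.8, 70.8 and 67.6% in these comparisons as deposited, 38.7, 61.6 and 49.8% with mitochondrial genes left out, and 50.8, 53.3 and 51.5% after quantile normalization.

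Adam12, which is known from developing mesenchyme, had the largest change of any member on the log2(FPKM + 1) scale. Its stromal level was 10.8, 10.2, 9.17 and 8.48 FPKM in sham samples, 101.0, 112.7, 87.1 and 79.7 in UUO samples and 44.7, 29.5, 30.4 and 25.1 in rUUO samples. The 3 groups did not overlap. The mean after UUO was 9.86-fold that in sham (3.17 ± 0.20 on the log2(FPKM + 1) scale, adjusted p = 5.46e-08), and rUUO was below UUO by 1.54 ± 0.20 in size (adjusted p = 0.00111) and 3.36-fold above sham (adjusted p = 4.37e-05). Adam19 moved in the same order. It was at 10.6, 11.2, 15.2 and 6.67 FPKM in sham, 60.1, 69.3, 71.3 and 45.2 in UUO and 17.2, 28.1, 27.2 and 23.2 in rUUO samples, again with no overlap. UUO was 5.63-fold above sham (2.42 ± 0.25, adjusted p = 3.84e-06), rUUO was at 0.389 of the UUO level (adjusted p = 0.00989) and 2.19-fold above sham (adjusted p = 0.0063). The CATATCA letters shown above lie in the 3′ UTRs of Adam12, Adam19 and Adam22, and their part in any change of these genes was not tested. The study reports miR-190a-5p as highest in PT cells and much lower in other kidney cells, fibroblasts among them.

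Adam10 in stromal cells changed less than Adam12 and Adam19, in both UUO and rUUO samples. It was at 11.9, 14.4, 12.3 and 9.56 FPKM in sham, 20.03, 18.1, 25.2 and 15.6 in UUO, and 23.4, 20.6, 15.4 and 21.8 in rUUO samples, and both surgical groups were above all sham samples. The change was 1.64-fold with UUO (0.66 ± 0.22, adjusted p = 0.037) and 1.69-fold for rUUO over sham (0.71 ± 0.22, adjusted p = 0.0384), and rUUO and UUO differed by 0.04 ± 0.22 (adjusted p = 0.94). With mitochondrial genes left out the first 2 changes were 0.50 (adjusted p = 0.116) and 0.49 (adjusted p = 0.172), after quantile normalization the change for rUUO over sham was 0.55 (adjusted p = 0.0779), and each lost its call in 6 of the 12 fits that left out a sample. For UUO these were sham replicates 1, 3 and 4 and UUO replicates 1, 2 and 3 (adjusted p from 0.0532 to 0.102), and for rUUO sham replicates 1, 3 and 4 and rUUO replicates 1, 2 and 6 (0.0645 to 0.11). Adam9 went the other way after reversal, from 26.3, 35.6, 32.2 and 25.0 FPKM in sham and 26.8, 27.2, 28.6 and 24.8 in UUO to 15.7, 14.4, 11.2 and 20.9 in rUUO samples. All rUUO samples were below all others (0.522 of the sham level, adjusted p = 0.00639, and 0.579 of the UUO level, adjusted p = 0.0493). The second of these calls was lost in 11 of the 12 fits that left out a sample (all but rUUO replicate 6), with adjusted p up to 0.13, and with no filter on low genes (adjusted p = 0.0754).

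The noncatalytic members split. Adam22 had 12.5, 20.1, 10.3 and 9.63 FPKM in sham, 3.81, 0.68, 4.14 and 2.77 in UUO and 16.7, 8.95, 4.03 and 5.37 in rUUO samples. UUO was below sham without overlap (-1.94 ± 0.43, adjusted p = 0.00326), and the rUUO samples spanned both groups. Markers of other nephron segments fell in the same samples: those of the thick ascending limb and distal tubule summed to 312.8 to 478.5 FPKM in sham samples, 28.5 to 59.8 after UUO and 52.5 to 89.5 after rUUO in stromal cells, those of the collecting duct to 46.9 to 83.6, 1.25 to 5.72 and 0.82 to 6.89, and those of the proximal tubule to 30.3 to 48.1, 5.59 to 9.51 and 7.12 to 15.4. None of the 12 genes in these lists was at 0 throughout a group, and their part in the fall of Adam22 was not tested. In PT cells themselves Adam22 was at most 1.02 FPKM. Adam23 had 0.56, 2.00, 2.68 and 0.58 FPKM in sham and 6.38, 7.13, 2.2 and 26.6 in UUO samples, and UUO was higher by 1.90 ± 0.52 (adjusted p = 0.0131) although the groups overlapped. Without the highest sample, UUO replicate 4, the change was 1.34 (adjusted p = 0.0369), and with no filter on low genes the call was lost (adjusted p = 0.0508). After rUUO it had 1.31, 1.98, 1.81 and 1.46 FPKM, below every UUO sample, and this did not pass (-1.70 ± 0.52, adjusted p = 0.0818), but did without UUO replicate 3 (-2.17, adjusted p = 0.0175) and in 1 fit over all 4 populations (adjusted p = 0.00663). In that fit the higher Adam22 of rUUO over UUO also passed (1.29, adjusted p = 0.0401, against 0.107).

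Adam15, Adam17 and Adam33 were not called in stromal cells. Adam15 had 19.6, 102.5, 79.4 and 70.2 FPKM in UUO samples against 17.3 to 30.1 in sham (1.23 ± 0.45, adjusted p = 0.0546). UUO replicate 1, at the sham level, stood apart, and without it the change was 1.74 (adjusted p = 0.00233). Leaving out rUUO replicate 1 or 4 also gave Adam15 a call, with adjusted p of 0.0445 and 0.0374, as did 1 fit over all 4 populations (adjusted p = 0.00422). Adam17 differed by 0.25 ± 0.20 with UUO (adjusted p = 0.4), within 12.7 to 17.8 FPKM in sham and 14.7 to 22.1 in UUO samples. Adam33 ranged from 0.21 to 5.22 FPKM in UUO samples (adjusted p = 0.971). Adam8 was at most 1.44 FPKM in any stromal sample.

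**Figure D3:**
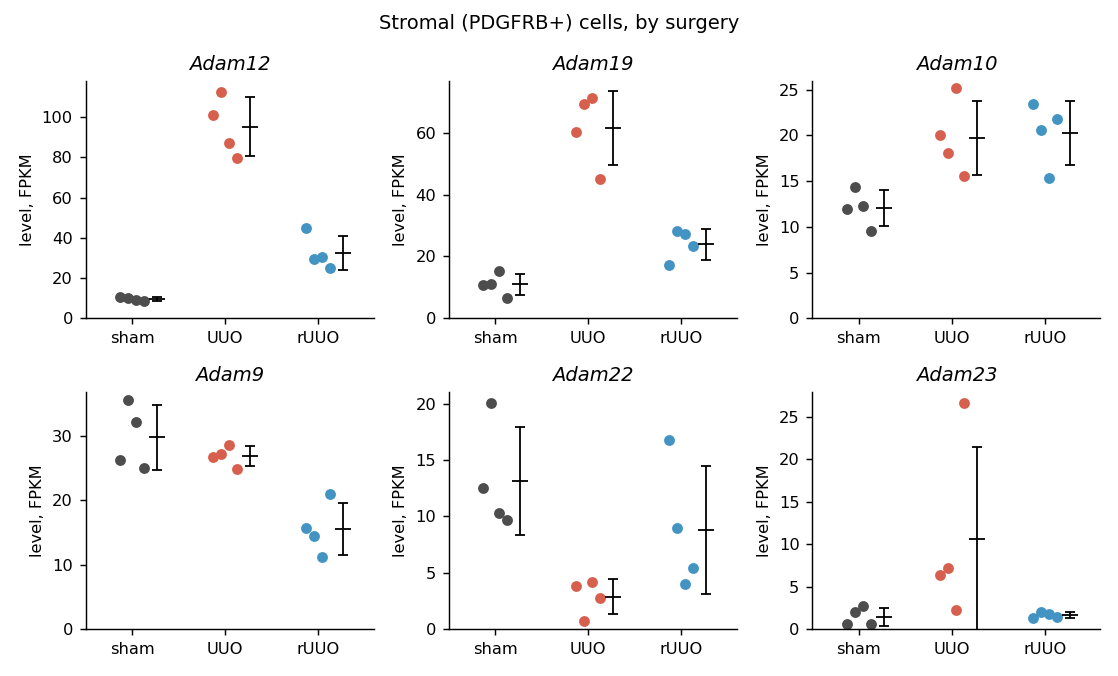
FPKM (vertical axis, from 0) of 6 members in stromal cells by surgery, with 1 point per sample and, beside the points, the mean and SD (n = 4 each; the lower bar of Adam23 after UUO is cut at 0). Adam12 and Adam19 show 3 separate groups, Adam10 is higher in both surgical groups, Adam9 is lower after rUUO, and Adam22 is lower after UUO.

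The sum of the stromal markers had the order seen for Adam12 and Adam19, but its 6 genes differed. Pdgfrb, Pdgfra, Col1a1, Col1a2, Col3a1 and Dcn summed to 1121 to 2937 FPKM in sham samples, 8673 to 14530 after UUO and 5947 to 8153 after rUUO. Col1a1, Col1a2 and Col3a1 followed that order on average. Pdgfrb was lower after UUO and rUUO than in sham samples (117.0 and 128.5 against 212.4 FPKM on average). Pdgfra and Dcn did not fall after reversal (135.2 and 139.0 FPKM for Pdgfra, 2386 and 2438 for Dcn, after UUO and rUUO). The part of these genes in the changes of Adam12 and Adam19 was not tested. Mitochondrial genes took 34.0 to 45.8% of the sum in sham and 21.5 to 26.4% in UUO stromal samples. With the mitochondrial genes left out, Adam12 and Adam19 were called in all 3 stromal comparisons, with changes of 3.00 and 2.25 after UUO.

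In macrophages, Adam8 was the member that changed. It was at 0.31, 0.52, 0.80 and 0.52 FPKM in sham, 8.56, 3.22, 5.58 and 3.59 in UUO and 12.9, 7.53 and 8.92 in rUUO samples (sham against the others without overlap). UUO was 9.74-fold above sham (1.95 ± 0.33, adjusted p = 0.00427) and rUUO 18.2-fold (2.79 ± 0.36, adjusted p = 0.000482). UUO and rUUO overlapped (adjusted p = 0.66), and every rUUO sample was above the sham range. With every sham value under 1 FPKM, Adam8 reached the filter through its UUO and rUUO samples. These were the only calls among the 9 members tested (all but Adam12): 1 higher with UUO against 2.86% of 13332 genes and none lower against 2.13%, and 1 higher for rUUO over sham against 1.89% and none lower against 1.55%. Between rUUO and UUO no member and no gene was called by limma, 0% in either direction. At an unadjusted p under 0.05 there were 2 members, Adam8 and Adam22, of 945 genes, and after quantile normalization or without mitochondrial genes 2 genes were called. The 3 neutrophil markers (S100a8, S100a9, Csf3r), none of them at 0 throughout a group, summed to 26.1 to 78.7 FPKM in sham samples, 49.9 to 232.2 after UUO and 99.1 to 126.8 after rUUO in macrophages, and the 4 T and B cell markers to 1.66 to 2.13, 3.37 to 51.5 and 6.08 to 22.6. Their part in the rise of Adam8 was not tested.

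Other macrophage members were not called. Adam9 was at 8.46 to 10.9 FPKM in sham and 16.2 to 20.3 in UUO samples, without overlap, and did not pass (0.75 ± 0.22, adjusted p = 0.0675), but did in 1 fit over all 4 populations (adjusted p = 0.0118). Adam17 lay between 44.7 and 49.7 FPKM in sham and between 65.9 and 71.1 in rUUO samples (0.54 ± 0.17, adjusted p = 0.103), and Adam10 between 16.0 and 27.2 and between 22.8 and 36.9 (0.32 ± 0.24, adjusted p = 0.563). Adam19 and Adam15 had lower values after rUUO than in any sham sample, 17.9 to 21.0 against 26.8 to 41.1 FPKM for Adam19 (-0.80 ± 0.22, adjusted p = 0.0629) and 35.4 to 50.6 against 54.6 to 85.0 FPKM for Adam15 (-0.59 ± 0.22, adjusted p = 0.176). Adam19 passed after quantile normalization (-0.84, adjusted p = 0.0374). In Adam22, UUO replicate 2 stood apart at 21.5 FPKM, beside 5.31, 6.76 and 4.39 in the other UUO samples. Adam22 was at 26.4, 19.5 and 23.8 FPKM in rUUO samples, and without that UUO sample its rise from UUO to rUUO was called (1.91, adjusted p = 0.026), as was the lower Adam19 of rUUO against sham (adjusted p = 0.049). Adam23 and Adam33 had adjusted p of 0.326 or more in macrophages, and Adam12 was at most 0.75 FPKM.

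**Figure D4:**
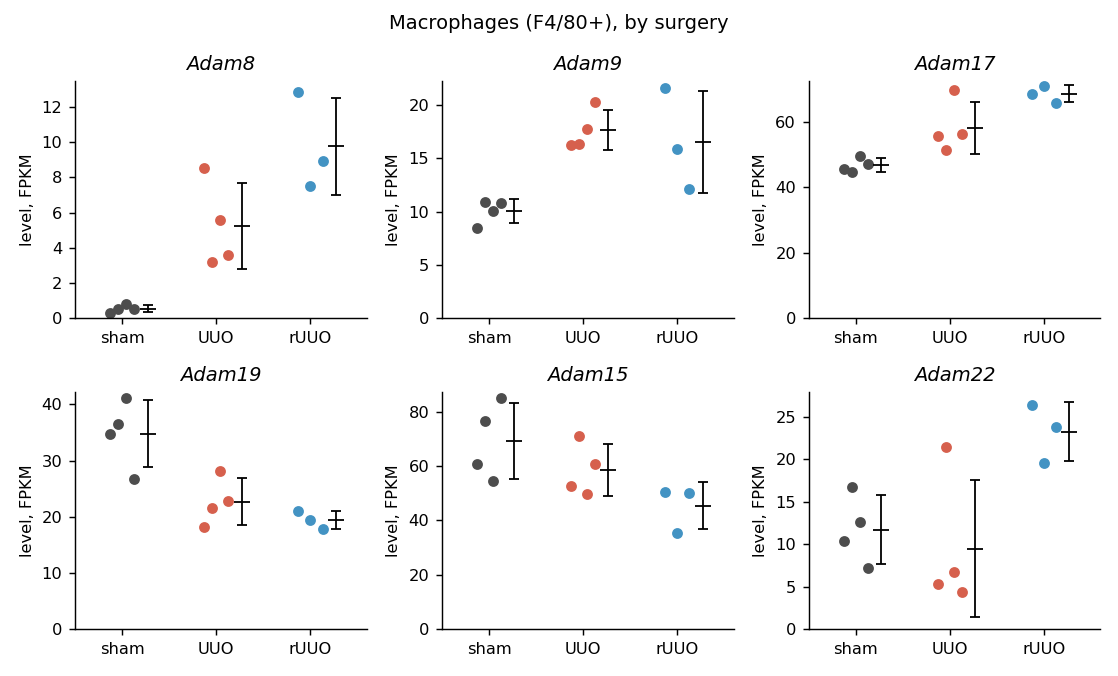
FPKM (vertical axis, from 0) of 6 members in macrophages by surgery, with 1 point per sample and the mean and SD beside them (n = 4, 4 and 3). Adam8 rises from under 1 FPKM in sham to 3.22 FPKM or more in every UUO and rUUO sample, while Adam19 and Adam15 have lower values after rUUO than in sham samples.

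PT cells held 4 members above the filter, Adam9, Adam10, Adam15 and Adam17. Adam15 was at 6.98, 3.71 and 5.35 FPKM in sham, 14.01, 9.6, 11.8 and 6.85 in UUO and 10.25, 8.5 and 11.1 in rUUO samples. It was 1.98-fold higher after UUO (0.86 ± 0.28, adjusted p = 0.031), with overlap between the groups, and 1.86-fold higher after rUUO without a call (adjusted p = 0.124). The median change of all genes in PT cells was 0.51 with UUO, and that was -0.04 after quantile normalization, where Adam15 had a change of 0.30 (adjusted p = 0.509) and Adam9 passed as lower (-0.81, adjusted p = 0.0194). Thus 1 of 4 members was higher with UUO against 27.9% of all 11416 genes and none lower against 4.91%, and no member was called between rUUO and UUO (0.674% of genes higher, 3.15% lower) or between rUUO and sham (6.52% higher, 0.946% lower). At an unadjusted p under 0.05 in limma there were 0 and 2 members in the last 2 comparisons, the 2 being Adam9 and Adam15. Over all 11416 genes, 2448 and 2453 reached that unadjusted threshold there. With UUO against sham 3 members reached it (Adam10, Adam15 and Adam17), as did 5070 genes. The share of calls that were higher was 85, 17.6 and 87.3% as deposited, 69.2, 48.5 and 76.1% without mitochondrial genes, and 50, 58.8 and 68.6% after quantile normalization. Leaving out PT sham replicate 2 or 4 or UUO replicate 1 or 3 also ended the call of Adam15 (adjusted p of 0.122, 0.0733, 0.0819 and 0.0718), as did rescaling without mitochondrial genes (0.59, adjusted p = 0.136) and no filter on low genes (adjusted p = 0.0681). Leaving out UUO replicate 2 or rUUO replicate 4 added a call for Adam17 (adjusted p of 0.0398 and 0.0449).

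Adam17 in PT cells was at 3.26, 3.94 and 2.33 FPKM in sham and 8.58, 4.25, 6.77 and 6.07 in UUO samples, above sham in each, and did not pass (0.81 ± 0.32, adjusted p = 0.0616). Adam10 was at 3.37, 4.94 and 5.32 FPKM in sham, 8.51, 5.13, 14.2 and 6.05 in UUO and 6.12, 4.09 and 6.05 in rUUO samples, and its groups overlapped (adjusted p = 0.108 with UUO and 0.781 for rUUO against sham). In 1 fit over all 4 populations, which pools the spread, Adam10 and Adam17 passed with UUO (adjusted p of 0.027 and 0.00427) and Adam15 did not (adjusted p = 0.077). Adam9 had lower means after UUO (5.91 ± 1.24 FPKM) and rUUO (4.45 ± 0.56) than in sham kidneys (7.34 ± 1.28), with adjusted p of 0.413 and 0.206. Adam9, the leading member in sham PT cells with 34.7 ± 4.12% of the summed level, made up 17.6 ± 1.00% after rUUO, where Adam15 made up 39.3 ± 1.64%. Thick ascending limb and distal tubule markers in PT samples summed to 26.1 to 40.8 FPKM in sham samples, 148.9 to 201.0 after UUO and 50.0 to 151.7 after rUUO. Most of that rise was in Umod (17.4, 147.4 and 72.9 FPKM on average). Slc12a3 was at 12.9, 15.1 and 10.6 FPKM and Slc12a1 at 2.19, 5.77 and 5.89. The proximal tubule markers summed to 1781 to 2413, 473 to 631 and 1062 to 1375 FPKM in the same groups. The part of either list in the values of the members was not tested. The other 6 members were at 1.02 FPKM or below in every PT sample.

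Endothelial cells had 6 members above the filter and no call among them. Their background was 1.28% of 13393 genes higher and 0.702% lower with UUO, 0.0448% higher and 0.0149% lower for rUUO against UUO, and 1.4% higher and 0.366% lower for rUUO against sham. At an unadjusted p under 0.05 in limma there was 1 member with UUO (Adam19), 1 between rUUO and UUO (Adam10) and 3 between rUUO and sham (Adam10, Adam12 and Adam19). Over all 13393 genes, 1788, 1369 and 1895 reached that unadjusted threshold in these comparisons. The share of calls that were higher, over all genes, was 64.5, 75 and 79.3% as deposited, 48.2, 77.8 and 77.2% without mitochondrial genes and 55.6, 45.5 and 61.1% after quantile normalization. Adam10 was at 35.3, 33.2, 40.6 and 32.8 FPKM in rUUO samples, above every sham and UUO sample (highest 31.1 and 27.6), with a change of 0.45 ± 0.19 over sham (adjusted p = 0.314). Adam15, the main endothelial member, had 110.5 to 205.3 FPKM in sham samples, 126.9 to 164.8 after UUO and 152.2 to 254.1 after rUUO (adjusted p = 0.859 with UUO, and a difference of 0.29 ± 0.22 for rUUO against sham that did not pass). Adam19 was 2.32-fold higher on average after rUUO (7.20 ± 3.49 against 16.7 ± 7.28 FPKM) and did not pass (1.13 ± 0.33, adjusted p = 0.112), but passed without sham replicate 2 (1.38, adjusted p = 0.046) and in 1 fit over all 4 populations (adjusted p = 0.00452). Adam12 had 3.08 ± 1.86, 4.05 ± 1.27 and 5.64 ± 1.32 FPKM after sham, UUO and rUUO (adjusted p of 0.743 and 0.329 against sham). Adam9 and Adam17 differed from sham by at most 0.11 on the log2 scale. Below the filter, Adam22 reached 3.22 FPKM, Adam23 2.65, Adam8 0.81 and Adam33 0.26 FPKM in single endothelial samples.

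**Figure D5:**
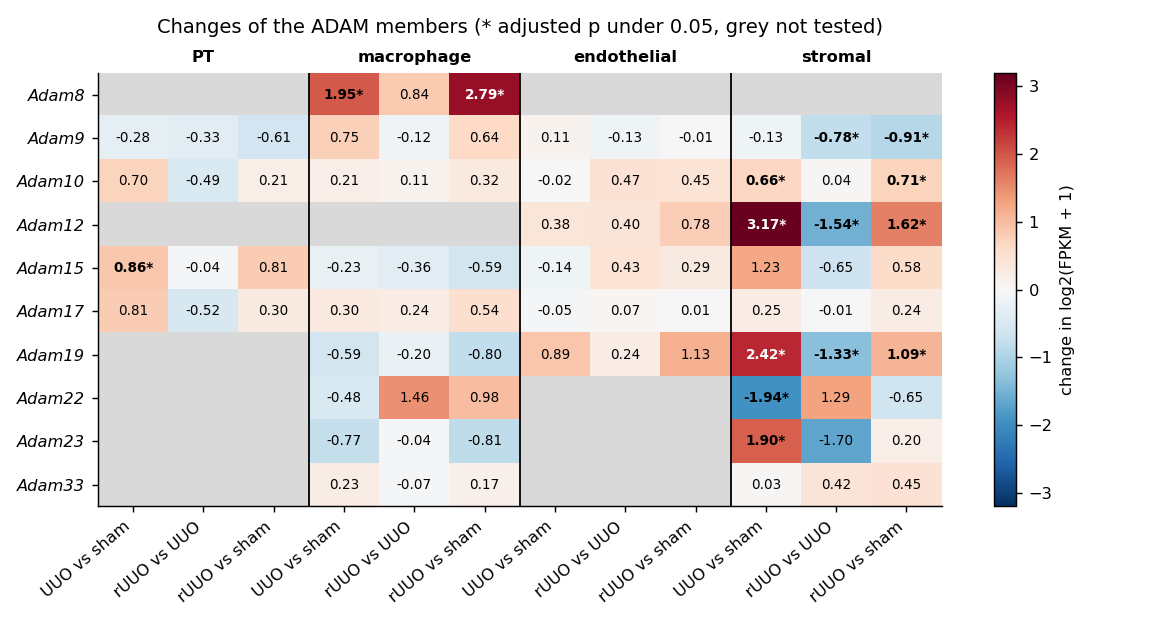
Change of each member (rows) in each comparison (columns, grouped by population) on the log2(FPKM + 1) scale, from blue (lower in the group named first) to red (higher). Asterisks mark adjusted p under 0.05 in limma and grey cells are members under the filter, and 12 of the 15 asterisks are in stromal cells. Stromal cells and macrophages had 9 members tested, endothelial cells 6 and PT cells 4. Per comparison and direction, 1.22 to 13.4% of all genes were called in stromal cells and 0.674 to 27.9% in PT cells. In macrophages it was at most 2.86% and in endothelial cells at most 1.4%.

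Median changes of the tested members, for UUO against sham, rUUO against UUO and rUUO against sham, were 0.66, -0.65 and 0.45 in stromal cells (all genes -0.07, 0.19 and 0.15), 0.21, -0.04 and 0.32 in macrophages (all genes -0.03, -0.02 and -0.03), 0.05, 0.32 and 0.37 in endothelial cells (all genes 0.03, 0.16 and 0.19) and 0.76, -0.41 and 0.25 in PT cells (all genes 0.51, -0.27 and 0.21). These describe the tested members only.

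Whether a change differed between populations was tested directly, by an F test of the interaction of population and surgery in 1 limma fit over the 44 samples, in which all 10 members passed the filter. Adam8 passed it only through UUO and rUUO macrophages (5.24 and 9.77 FPKM on average). Its mean was under 1 FPKM in every other group, so its calls below set those macrophages against values near 0. Adam23 passed the filter only through stromal UUO samples (10.59 FPKM on average, 2.2 to 26.63), so its call below rests on the group that let it in. With UUO, 7 of 10 members differed (33.5% of all genes), Adam8, Adam9, Adam12, Adam15, Adam19, Adam22 and Adam23. Between rUUO and UUO, 2 of 10 differed (5.57% of all genes), Adam12 and Adam19. Between rUUO and sham, 4 of 10 differed (15.1% of all genes), Adam8, Adam9, Adam12 and Adam19. Adam12 and Adam19 were thus called in all 3 comparisons, which share samples. Adam10 was called in none of them (adjusted p of 0.183, 0.235 and 0.681), nor were Adam17 and Adam33. The call of Adam12 between rUUO and sham was lost with a pseudocount of 0.1 (adjusted p = 0.59) and without mitochondrial genes (adjusted p = 0.0637).

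The escort and processing genes were read from lists of known regulators. Among the 3 iRhom genes (Rhbdf1, Rhbdf2 and their partner Frmd8), Rhbdf2, which carries Adam17 to the surface, rose in stromal cells to 8.23 ± 2.87 FPKM with UUO from 2.22 ± 1.53 in sham samples (1.61 ± 0.35, adjusted p = 0.00323) and 13.4 ± 2.24 after rUUO (adjusted p = 0.000297). It was the only call of that list in any comparison, and 13.4% and 11.6% of all genes were higher in these 2 stromal comparisons. Of the 5 tested TspanC8 tetraspanins, which steer Adam10, 2 fell in stromal cells with UUO (13% of all genes), Tspan15 from 41.0 ± 5.35 to 3.23 ± 1.23 FPKM (adjusted p = 3.92e-07) and Tspan33, and Tspan15 was back at 16.6 ± 4.55 FPKM after rUUO (adjusted p = 0.00101 against UUO). The tubule markers named above fell in the same samples, and their part was not tested. Tspan33 reached the stromal filter only through sham samples (5.18 FPKM on average, against 0.1 after UUO and 1.69 after rUUO). In PT cells 3 of 5 rose with UUO (27.9% of all genes), Tspan14, Tspan15 and Tspan17, the last with the largest change (1.36 ± 0.28, adjusted p = 0.00213, and 0.71 with adjusted p = 0.0956 after quantile normalization). Tspan17 (0.61 to 0.84 FPKM in PT sham samples) reached the filter only through UUO and rUUO samples. Tspan15 (0.42 to 0.99 in sham) reached it only through UUO samples, so the count of 3 leans on groups where these genes were high. In macrophages Tspan33 fell with UUO (-1.28 ± 0.33, adjusted p = 0.0434). Of 4 proprotein convertases in stromal cells, Pcsk5 rose 5.79-fold with UUO (adjusted p = 1.89e-05, 13.4% of all genes higher) and was lower after rUUO than UUO (adjusted p = 0.0379, 1.22% of all genes lower), while Furin, Pcsk6 and Pcsk7 passed no test.

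Among the inhibitors, Timp1, which acts on many metalloproteases including Adam10, had 5.25 to 18.02 FPKM in stromal sham samples and 242.0 to 1492.0 FPKM after UUO (5.56 ± 0.47, adjusted p = 6.08e-07), and 336.5 ± 90.6 FPKM after rUUO. It was 1 of 4 tested TIMP and Reck genes called with UUO in stromal cells (13.4% of all genes higher). Timp3, which inhibits Adam10 and Adam17, fell in PT cells, with 530.0 ± 50.5 FPKM in sham samples, 235.8 ± 32.5 with UUO (-1.17 ± 0.16, adjusted p = 8.08e-05) and 272.8 ± 2.86 after rUUO (adjusted p = 0.00252), against a median of 0.51 and 0.21 over all genes. Timp1 rose in PT cells with UUO (2.31 ± 0.41, adjusted p = 0.000772). In macrophages and endothelial cells no inhibitor passed in any comparison. Gamma-secretase is the protease complex that cuts many of the stubs left by shedding. Of its 7 genes Ncstn was the only call in PT cells (1.93 ± 0.25 with UUO, adjusted p = 5.07e-05), where 27.9% of all genes were called higher with UUO. Of the 6 tested in stromal cells Psen2 was the only call (-1.97 ± 0.32 with UUO, adjusted p = 0.000266), where 13% of all genes were called lower.

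Substrates known to be shed were counted in 3 lists. Of 3 tested EGF receptor ligands in stromal cells all 3 (Egf, Hbegf and Tgfa) fell with UUO (13% of all genes), Egf to 0.0178 of its sham level (66.7 ± 13.5 to 1.19 ± 1.09 FPKM), and Egf fell with UUO also in macrophages and endothelial cells. Markers of the thick ascending limb and distal tubule, a segment that makes Egf, summed to 56.2 to 83.9 FPKM in sham and 12.9 to 37.5 in UUO macrophages, and to 148 to 758 in sham and 58.4 to 186 in UUO endothelial cells, and their part was not tested. Hbegf, released by Adam17, rose 2.90-fold in PT cells with UUO (adjusted p = 0.00211, and 0.0972 after quantile normalization) and was lower again after rUUO (adjusted p = 0.0286, and 0.0723 without mitochondrial genes), whereas in stromal cells it was higher after rUUO than UUO (adjusted p = 0.0173). Of 8 cytokines and receptors, 3 of 5 tested rose in PT cells with UUO (27.9% of all genes), led by Tnfrsf1a (4.53-fold, adjusted p = 0.000123). In stromal cells 3 of 7 rose with UUO (13.4% of all genes) and 4 of 7 for rUUO over sham (11.6%), where Fas was 7.53-fold higher (adjusted p = 0.000414). In macrophages Tnf, the best known substrate of Adam17, was 2.43-fold higher after rUUO than sham (adjusted p = 0.0446). Of 15 tested adhesion and other membrane proteins, 5 rose and 6 fell in stromal cells with UUO (13.4% and 13% of all genes). L1cam, a substrate of Adam10, fell to 0.0673 of its sham level (adjusted p = 1.05e-05). The tubule markers given above fell in the same stromal samples, and their part in the lower values of Egf, L1cam, Psen2 and others was not tested. In macrophages 3 of 15 rose with UUO (2.86% of all genes), among them Trem2, a lipid receptor shed by Adam10 and Adam17 (1.91 ± 0.23 on the log2 scale, adjusted p = 0.000239), and Mertk was 3.76-fold higher after rUUO than sham (adjusted p = 0.000598). The median change with UUO in stromal cells was 0.29 for the iRhom list, -0.27 for the tetraspanins, 0.38 for the convertases, 0.27 for the inhibitors, 0.21 for gamma-secretase, -2.29 for the EGF receptor ligands, 0.59 for the cytokines and receptors and 0.24 for the adhesion list, against -0.07 over all genes. In PT cells it was 0.39 for the iRhom list, 0.89 for the tetraspanins, -0.39 for the convertases, 0.92 for the inhibitors, 0.28 for gamma-secretase, 0.24 for the EGF receptor ligands, 0.74 for the cytokines and receptors and 0.40 for the adhesion list, against 0.51. That adhesion list was led in PT cells by Havcr1, from 1.17 to 269.5 FPKM on average with UUO (6.92 ± 0.34, adjusted p = 4.65e-09). Vcam1 rose from 0.63 to 23.4 FPKM (adjusted p = 4.23e-06). Both were above sham after rUUO (adjusted p of 5.81e-06 and 0.00013), and Havcr1 was lower than after UUO (adjusted p = 0.000947). Kl went the other way, from 88.8 to 29.5 FPKM on average with UUO.

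Other ADAM genes added little. Of Adam11, Adam28 and Adamdec1, Adam11 alone passed the filter, in PT and stromal cells, with no call. Across the 12 group means of log2(FPKM + 1), the genes most like Adam12, of 19300 compared, were Sned1 (Pearson r = 0.989), Zfp9 (0.987) and Dsel (0.986), those most like Adam10 were Smarcd2 (0.985), Dip2b (0.984), Eif2s1, Hnrnpf and Pot1a, and those most like Adam8 were the transcripts Gm15987 and Gm45700 and Cd200r4 (0.988). For Adam19 they were Nfatc3, Mfsd10 and Rrbp1 (0.977 to 0.976), for Adam17 Samhd1, Zfp36l2 and Actr2, for Adam15 Cdk17, Mgat1 and Cr1l, and for Adam9 Gm27019, Loxl3 and Lrp1. For Adam22 they were Ptger4, Fat3 and Kif21b, for Adam23 Col10a1, Gm43627 and Olfr1260, and for Adam33 Pid1, Celf2 and Abca9. The 12 means share libraries and are dominated by the populations, so these are descriptions of pattern only.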

How the data were processed

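RNA from FACS-sorted mouse kidney cells was amplified (Ovation RNA-Seq System V2) before sequencing, and the submitters' processing notes name FastQC, Bowtie2, RSEM and DESeq2, with the mm10 build and no versions. The authors deposited 1 table of FPKM values per gene and sample, with no counts, so depth is known only relatively, from the steps between low values. It has 46 columns of values. Of these 44 entered the fits, and 2 that share a single header (CD31+, UUO, replicate 3) were not assigned, and PT sham replicate 3 was not analysed here. PT UUO replicate 2, whose title also holds the word sham, was grouped by its treatment label.

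For each population, log2(FPKM + 1) was compared between surgeries with limma 3.58.1 in R 4.3.3 (empirical Bayes with a mean-variance trend) over genes whose mean reached 1 FPKM, and p-values were adjusted by Benjamini-Hochberg over all genes tested, with calls at 0.05. Sham levels were compared between populations in a fit over the sham samples, and the interaction of population and surgery was tested in a fit over all 44. A fold is a ratio of mean FPKM, and differences on the log2(FPKM + 1) scale understate the change of low genes. An error after ± is an SD for levels and an SE for differences. The scripts were tested on simulated data. The members, the gene lists and the tests were chosen with earlier results of these data known. The 10 members are all named. From the other lists, the genes named were, per list, population and comparison, at most 2 called genes with the largest changes whose groups did not overlap, and others only where a count of 5 or fewer is spelled out. Similar genes were the 3 (5 for Adam10) with the highest Pearson r. Alternatives were a pseudocount of 0.1, no filter, rescaling without the 37 mitochondrial genes, quantile normalization, 1 fit over the 4 populations, a replicate block and leaving out each sample. Figures and sequence searches used Python 3.11.15 with pandas 2.3.3, numpy 2.4.6 and matplotlib 3.10.9.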

Additional observations from a re-analysis of the deposited data

Results flagged for a closer look

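Changes of 7 members differed between the populations in the limma interaction test. With UUO against sham, the adjusted p was 7.02e-05 for Adam8, 0.0163 for Adam9, 1.46e-09 for Adam12, 0.0286 for Adam15, 7.44e-08 for Adam19, 0.00596 for Adam22 and 0.00128 for Adam23. For rUUO against UUO it was 0.0008 for Adam12 and 0.022 for Adam19, and for rUUO against sham it was 3.37e-07 for Adam8, 0.000528 for Adam9, 0.0131 for Adam12 and 0.000195 for Adam19. Adam12 was higher after UUO by 3.17 on the log2 scale in stromal cells, with 0.25 to 0.53 FPKM in UUO macrophages and 0.13 to 0.76 FPKM in UUO PT cells. Adam8 was higher by 1.95 in macrophages and lay at 1.44 FPKM or below in every UUO sample of the other populations. In this fit Adam8 passed the filter only through UUO and rUUO macrophages, and Adam23 only through stromal UUO samples. Adam19 was higher by 2.42 in stromal cells, against -0.59 in macrophages (adjusted p = 0.112) and 0.89 in endothelial cells (adjusted p = 0.283).

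Some of these calls moved with 1 sample or setting. Adam8 with UUO ranged from an adjusted p of 1.08e-05 to 0.0656, and its call was lost with a pseudocount of 0.1. Adam12 for rUUO against sham ranged from 0.0036 to 0.59, and was lost with a pseudocount of 0.1 (0.59) and without mitochondrial genes (0.0637). Adam15 with UUO ranged from an adjusted p of 0.000361 to 0.0755 over all alternatives, and was lost without mitochondrial genes (0.0755), with no filter (0.0646) and without stromal sham replicate 3 or stromal UUO replicate 2, 3 or 4. Adam19 for rUUO against UUO ranged from 0.0124 to 0.0775, and was lost with a pseudocount of 0.1 (0.0775) and without stromal UUO replicate 2 (0.0506) or rUUO replicate 1 (0.0647). Adam17 with UUO was called without PT UUO replicate 2 (0.0472) or endothelial sham replicate 4 (0.0463). For rUUO against UUO, leaving out macrophage UUO replicate 1 added Adam8 (0.0299) and Adam23 (0.0398), leaving out macrophage UUO replicate 2 added Adam22 (0.0437), and leaving out stromal UUO replicate 3 gave Adam23 an adjusted p of 0.00835.

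In 5 of 79 member groups of 4 samples, 1 sample stood far from the rest, 6.33% where chance gives about 1 in 20. Adam8 was at 0.28 FPKM in PT UUO replicate 2 and at 0.18 FPKM in stromal sham replicate 2. Adam17 was at 17.03 FPKM in stromal rUUO replicate 6, below its 3 neighbours at 19.6 to 19.8. Adam22 was at 3.22 FPKM in endothelial rUUO replicate 6, and Adam33 at 0.46 FPKM in PT UUO replicate 3. Of these values only those of Adam17 and Adam22 exceeded 1 FPKM.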

How the results depend on the processing

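Of 805 recomputed values, 734 kept their direction and side of the threshold or moved within 1.5 times. The number of members called in PT cells with UUO, 1, became 0 with no filter and 0 without mitochondrial genes, and 2 in 1 fit over the 4 populations, where macrophage UUO had 2, endothelial rUUO against sham 1 and stromal rUUO against UUO 5. Macrophage rUUO against sham had 2 after quantile normalization, and members whose change differed between populations for rUUO against UUO numbered 1 with a pseudocount of 0.1. Adam10 turned in sign, never with a call, in PT rUUO against sham after quantile normalization (-0.0769) and in stromal rUUO against UUO without mitochondrial genes (-0.00358) and after quantile normalization (-0.0872). The cause was not tested.

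Leaving out 1 sample gave counts of 0 to 2 in PT UUO, 0 to 1 in macrophage rUUO against UUO, 1 to 2 in macrophage rUUO against sham, 0 to 1 in endothelial rUUO against sham, and 1 to 4 members whose change differed between populations for rUUO against UUO. Adam10 spanned -0.0762 to 0.259 in macrophage rUUO against UUO, -0.122 to 0.0713 in endothelial UUO, -0.0557 to 0.166 in stromal rUUO against UUO, 0.543 to 0.762 in stromal UUO and 0.609 to 0.828 in stromal rUUO against sham. Adam15 in PT UUO spanned 0.659 to 1.04 and Adam9 in stromal rUUO against UUO -0.927 to -0.644.

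With the replicate block, stromal rUUO against UUO had 1 member called, as Adam9 (-0.89, adjusted p = 0.0887) and Adam19 (-1.20, adjusted p = 0.0648) were lost, Adam10 in stromal rUUO against sham had an adjusted p of 0.0804, Adam10 in endothelial UUO was 0.00374, and no other recomputed call changed. Deviations of samples that share a number had median correlations of -0.00473 to 0.0317 within populations across surgeries and 0.00931 across populations. For samples with other numbers the medians were -0.00548 to -0.00256 and -0.00298. Correlations over 0.1 occurred only between samples that share a number, in 1 pair within PT cells and 2 pairs across populations. Such small medians cannot decide whether equal numbers mark the same mouse. With no counts deposited, limits of depth on low members such as Adam8, Adam23 and Adam33 could not be given.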
